A study of Mus musculus with 16 samples.

Results

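The data described here are for 7 mouse genes whose proteins act in the exchange of histones for protamines: Brdt, Chd5, Rnf8, Pygo2, Epc1, Kat5 and Psme4. They were chosen by name for this role, with earlier results of these data known, and they are 7 of 21938 protein-coding genes on chromosomes 1 to 19, X and Y in the GENCODE vM21 annotation of mm10. Haploid spermatids sorted by DNA content came from 2-month-old males of a triple KO line and from their WT brothers. KO males are hemizygous for disrupting deletions in H2afb1, H2afb2 and H2afb3, the X-linked genes of the short histone variant H2A.B, and WT males carry intact copies. All KO animals descend from 1 CRISPR/Cas9-edited strain that was crossed to C57BL/6J, so a change tied to that strain and the loss of H2A.B cannot be told apart. Chromatin was profiled by AutoCUT&RUN, in which an antibody tethers a nuclease to its target and the released DNA is sequenced from both ends. A control IgG and antibodies to the histone marks H3K4me3, H3K9me3 and H3K27me3 were each used on KO and WT spermatids, with 2 replicates of each, which gave 16 libraries in 8 groups of 2.

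During spermiogenesis most histones are hyperacetylated, evicted and replaced, at first by transition proteins and then by protamines, which pack the haploid genome tightly. BRDT is a testis-specific double-bromodomain protein that binds acetylated histone H4, EPC1 and KAT5 (TIP60) are subunits of the NuA4 acetyltransferase complex, and PYGO2 reads H3K4me3 with its PHD finger. RNF8 is a ubiquitin ligase for H2A and H2B, CHD5 is a chromatin remodeler, and PSME4 (PA200) activates the proteasome toward acetylated histones. H3K4me3 is found at the starts of active or poised genes, H3K27me3 at genes held by Polycomb, and H3K9me3 in heterochromatin.

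The values are fragments with distinct coordinates, each counted once per library and placed by its midpoint, and levels are given as CPM, the fragments per 1000000 distinct fragments of the library. The H3K4me3 libraries hold 784360 to 3394830 of them, the H3K27me3 libraries 200457 to 3806026, the H3K9me3 libraries 5009169 to 6746382, and the IgG libraries 159611 to 270598. Among 10 spermatid marker genes, 9 had more H3K4me3 than IgG at their start (limma-voom, adjusted p under 0.05), and Prm1, with 11 H3K4me3 fragments in all, was not called. Of 5 meiotic prophase genes, 4 were higher as well, so this mark did not separate the sorted cells from earlier stages. Over all genes, 73.6% of the 12887 starts tested were called higher, so these counts of calls say little about cell identity. At Leydig and macrophage genes mean H3K4me3 was 0 to 0.597 CPM, at Sertoli genes 0.115 to 1.73 and at spermatogonial genes 0.0736 to 2.44. Within 1 kb of the start of each H2afb gene lay 27 to 32 fragments over the 8 WT libraries and 31 to 42 over the 8 KO libraries. Inside the genes, where the deletions lie, there were 2 to 8 fragments per gene in WT and 5 to 8 in KO, too few to check the genotype.

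In mm10, Brdt spans chr5:107331159-107387058 on the + strand, Chd5 chr4:152338651-152390194 (+), Rnf8 chr17:29614790-29644991 (+), Pygo2 chr3:89430214-89435128 (+), Kat5 chr19:5603014-5610237 (-) and Psme4 chr11:30771726-30880361 (+). Their lengths run from 4915 bp for Pygo2 to 108636 bp for Psme4. The start of Rnf8 is shared. A noncoding gene on the other strand, AC163629.1, begins 20 bp away, and Gm28043, a protein-coding gene on the same strand, begins 86 bp away and overlaps Rnf8, so fragments there cannot be assigned to 1 of the 3.

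The bases just before the starts are shown for 4 genes. Brdt and Kat5 share motifs and had the highest mean H3K4me3 within 1 kb of the start. In the wider runs defined below, Chd5 had the most fragments, and a link between motifs and H3K4me3 was not tested. Chd5 and Psme4 had H3K4me3 on both sides of the start. Sequences are from RefSeq (GRCm38.p6, the assembly of mm10), 5′ to 3′ on the strand of the gene, and end at the base before the GENCODE start. Capitals mark matches on either strand to CACGTG (E box), CCAAT and TGACG, the core of the cAMP response element TGACGTCA.
Brdt, chr5:107330944-107331158, + strand: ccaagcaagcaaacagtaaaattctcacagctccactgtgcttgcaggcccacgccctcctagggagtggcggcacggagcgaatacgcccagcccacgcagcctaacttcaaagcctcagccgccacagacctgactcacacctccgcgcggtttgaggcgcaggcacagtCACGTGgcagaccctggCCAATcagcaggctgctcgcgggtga
Kat5, chr19:5610238-5610344, - strand: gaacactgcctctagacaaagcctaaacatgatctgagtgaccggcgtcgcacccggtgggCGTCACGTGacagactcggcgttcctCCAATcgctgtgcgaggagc
Chd5, chr4:152338401-152338650, + strand: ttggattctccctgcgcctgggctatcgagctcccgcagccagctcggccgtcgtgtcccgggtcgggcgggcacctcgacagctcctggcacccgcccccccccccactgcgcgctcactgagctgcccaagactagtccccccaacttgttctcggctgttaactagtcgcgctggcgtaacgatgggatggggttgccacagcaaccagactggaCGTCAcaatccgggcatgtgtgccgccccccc
Psme4, chr11:30771525-30771725, + strand: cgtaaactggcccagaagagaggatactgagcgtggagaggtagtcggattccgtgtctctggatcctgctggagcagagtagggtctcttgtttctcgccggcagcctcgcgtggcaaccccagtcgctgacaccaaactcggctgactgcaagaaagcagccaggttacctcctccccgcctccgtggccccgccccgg

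The full 250 bases before the RefSeq start were searched for 6 of the 7 genes and for all 32851 promoters in the table. Positions are counted from the RefSeq start, not from the end of the sequences shown. It lies 35 bp downstream of the GENCODE start in Brdt and 143 bp in Kat5. CACGTG was found before Brdt (-78) and Kat5 (-186), 2 of 6 genes, against 6.02% of all promoters. Both also hold CCAAT, at -61 and -163, as does Rnf8 at -209, and 33.8% of all promoters hold it. TGACG was found before Chd5, Pygo2 and Kat5 (17.8% of all promoters), and in Kat5 it shares 2 bases with CACGTG. The full TGACGTCA (1.55% of promoters), TATAAA (12.4%) and GCATGCGC, an NRF1-type element (2.26%), were absent from these 6 windows. CG dinucleotides numbered 12 in Pygo2, 14 in Rnf8, 15 in Kat5, 16 in Brdt, 20 in Psme4 and 21 in Chd5, against a median of 6 over all promoters. A match is a run of letters and does not show that a factor binds there.

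H3K4me3 was found at the start of all 7 genes in each of the 4 H3K4me3 libraries. Within 1 kb of the start of Kat5, the catalytic subunit of NuA4, lay 15 and 44 fragments in WT replicates 1 and 2 and 39 and 63 in KO replicates 1 and 2. This was 19.1 and 20.2 CPM in WT and 28.9 and 18.6 in KO. Both WT values lay between the KO values, so the genotypes overlapped.
For its partner Epc1, which scaffolds the complex, the numbers were 8, 18, 6 and 43 fragments in the same order, or 10.2, 8.25, 4.45 and 12.7 CPM. All 4 values were below all 4 of Kat5, and KO replicate 1 was the lowest.
Brdt had 12, 39, 30 and 64 fragments, or 15.3, 17.9, 22.3 and 18.9 CPM. Both KO values were above both WT values, with 17.9 and 18.9 the nearest values. With 2 libraries against 2, the smallest exact two-sided permutation p is 0.333. The fitted median over all starts was also higher in KO, by 0.17 on the log2 scale. The other reader, Pygo2, had 5, 35, 18 and 50 fragments (6.37, 16.05, 13.4 and 14.7 CPM), with WT replicate 1 the lowest.
For the remodeler Chd5 the counts were 6, 42, 16 and 62 (7.65, 19.3, 11.9 and 18.3 CPM). The replicate 1 library was the lower one in both genotypes. For Rnf8, 10, 19, 15 and 33 fragments (12.7, 8.71, 11.1 and 9.72 CPM) were counted, the narrowest range of the 7, and reads from its overlapping neighbors are included.
Psme4 had 4, 35, 32 and 56 fragments, or 5.10, 16.05, 23.7 and 16.5 CPM. Both KO values exceeded both WT values, with the limits given for Brdt. WT replicate 2 and KO replicate 2 nearly coincided, and the WT replicate 1 value rests on 4 fragments.

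Ordered by the mean over the 4 libraries, Kat5 came first with 21.7 CPM, followed by Brdt (18.6), Psme4 (15.3), Chd5 (14.3), Pygo2 (12.6), Rnf8 (10.6) and Epc1 (8.89). Every window has the same length, so these levels can be compared between genes, but only within 1 kb of the annotated start. Each gap between neighbors in this order, 1.09 to 3.23 CPM, was within the spread between replicates. The order differed over the runs at the start, defined below, which held 711 fragments at Chd5, 460 at Brdt, 428 at Psme4 and 201 at Kat5. Epc1 had more fragments at an internal coding start than at its gene start (99 against 75). Over all protein-coding genes the median per library was 2.75 to 3.82 CPM, and the 7 genes lay between the 52.5th and the 94.7th percentile in single libraries. In pooled counts they were 13.3 (Epc1) to 28.5 (Kat5) times what an even spread over the genome would give. In sorted bulk cells, more cells with the mark and more of the mark per cell cannot be told apart.

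**Figure D1:**
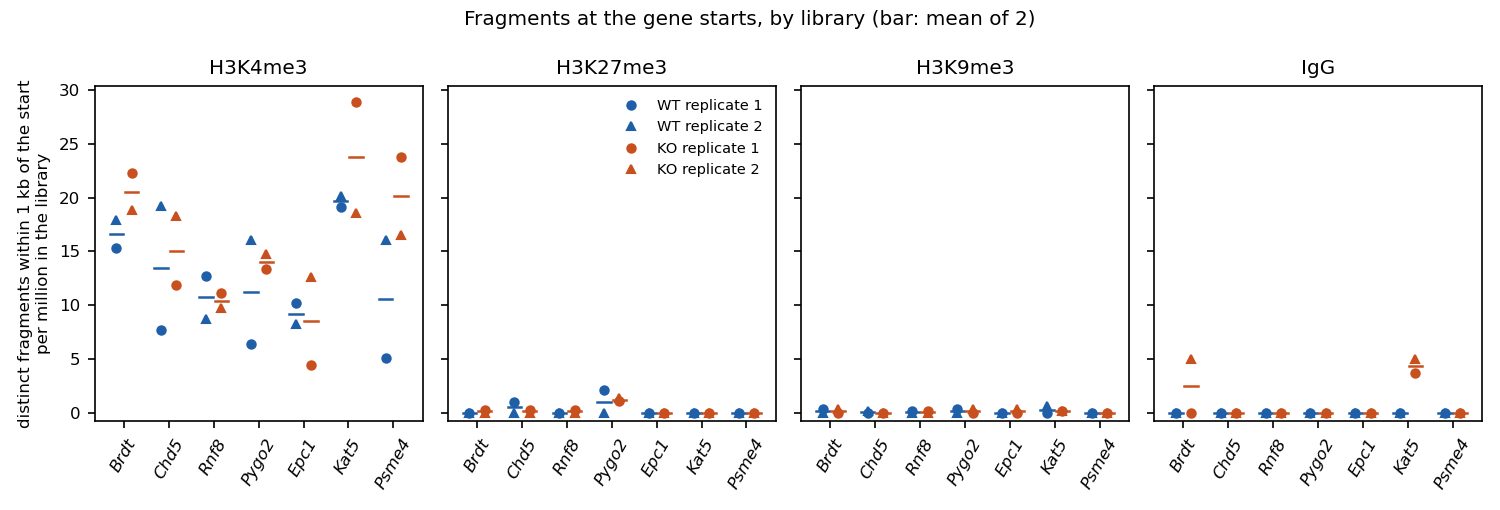
Distinct fragments within 1 kb of each gene start, in CPM (y axis), for the 7 genes and the 4 targets; points are single libraries and bars the means of 2 replicates. H3K4me3 values run from 4.45 to 28.9 CPM, all H3K27me3 and H3K9me3 values lie below that range, and the IgG values above 0 come from 1 fragment each.

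Set against IgG, H3K4me3 at the start was higher for 7 of 7 genes (limma-voom over all genes, adjusted p from 0.000372 to 0.00331). The background was high, since 73.6% of the 12887 starts tested were also called higher. Starts entered the test with at least 10 fragments over both targets, and the 7 genes did so through their H3K4me3 counts alone, so the count of calls adds little to the fragment numbers. IgG had 0 fragments over its 4 libraries at the starts of Chd5, Rnf8, Pygo2, Epc1 and Psme4. With a floor of 3 IgG fragments over the group, H3K4me3 was at least 4.35-fold higher at Psme4, 4.31-fold at Chd5, 3.70-fold at Pygo2, 2.63-fold at Rnf8 and 2.57-fold at Epc1. Brdt had 1 IgG fragment, which gives a ratio of 14.9 (95% exact interval 2.63 to 592), and Kat5 had 2, which gives 8.26 (2.25 to 68.8). These intervals and floors cover counting error only. Fitted log2 differences were 1.71 (Epc1) to 2.51 (Brdt) but depend on how counts of 0 are treated. Brdt lost its call without H3K4me3 WT replicate 1 or 2 (adjusted p = 0.0560 and 0.0538, limma-voom) and with every deposited fragment counted (0.129). Psme4 lost it within 500 bp of the start (adjusted p = 0.503, limma-voom) and with WT libraries only (0.0856).

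H3K27me3 and H3K9me3 fragments were few at these starts. In H3K27me3, Pygo2 had more than 71.0% of all genes, Chd5 more than 59.6%, and Brdt and Rnf8 more than 21.0%, while Epc1, Kat5 and Psme4 were at 0. In H3K9me3, Kat5 had more than 60.6%, Brdt and Pygo2 more than 51.1%, Rnf8 and Epc1 more than 23.01% and Chd5 more than 8.26%, and Psme4 was at 0. Over the 4 H3K27me3 libraries, 0 fragments fell within 1 kb of the start of Epc1, Kat5 and Psme4, 1 at Brdt and at Rnf8, 4 at Chd5 and 11 at Pygo2, where an even spread over the genome would give 5.59. Those at Pygo2, 6 and 0 in WT and 4 and 1 in KO, all lay upstream. H3K27me3 was 3.94 times the genome mean in the 1 kb before the Pygo2 start and 0 in the 1 kb after it. These fragments adjoin those in the neighboring gene Shc1 described below. At this depth 0 fragments allow up to 0.394 CPM. Only Pygo2 had enough fragments to enter the test, through its H3K27me3 counts alone, and with 0 IgG fragments no fold can be given. It was not called (0 of 1, adjusted p = 0.209, limma-voom), while 69.0% of the 6707 starts tested were called in 1 direction or the other. For H3K9me3 the counts were 0 at Psme4, 1 at Chd5, 2 at Rnf8 and Epc1, 4 at Brdt and Pygo2 and 5 at Kat5, against 16.99 for an even spread, and no member had enough fragments for the test.

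The genes differed in where H3K4me3 lay around the start. Counted within 5 kb on either side, 87.0% of the H3K4me3 fragments at Rnf8 and 79.9% at Pygo2 were downstream of the start, 72.0% at Brdt, 70.3% at Epc1, 64.7% at Kat5, 63.7% at Chd5 and 60.6% at Psme4. In 500-bp steps, the highest count at Kat5 was in the step that begins at the start (61 fragments), and at Pygo2 in the next one (48). At Brdt and Epc1 it was 1500 to 2000 bp downstream, with 63 and 27 fragments, and at Rnf8 1000 to 1500 bp downstream (40). At Chd5 it was 1000 to 1500 bp upstream (58) and at Psme4 500 to 1000 bp upstream (42). In 1-kb windows the highest count at Chd5 was instead 1000 to 2000 bp downstream (111), so its highest place depends on the step. Within 2 kb, 48.5% of the fragments at Chd5 and 43.4% at Psme4 were downstream, compared with 61.9% to 84.5% at the others.

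**Figure D2:**
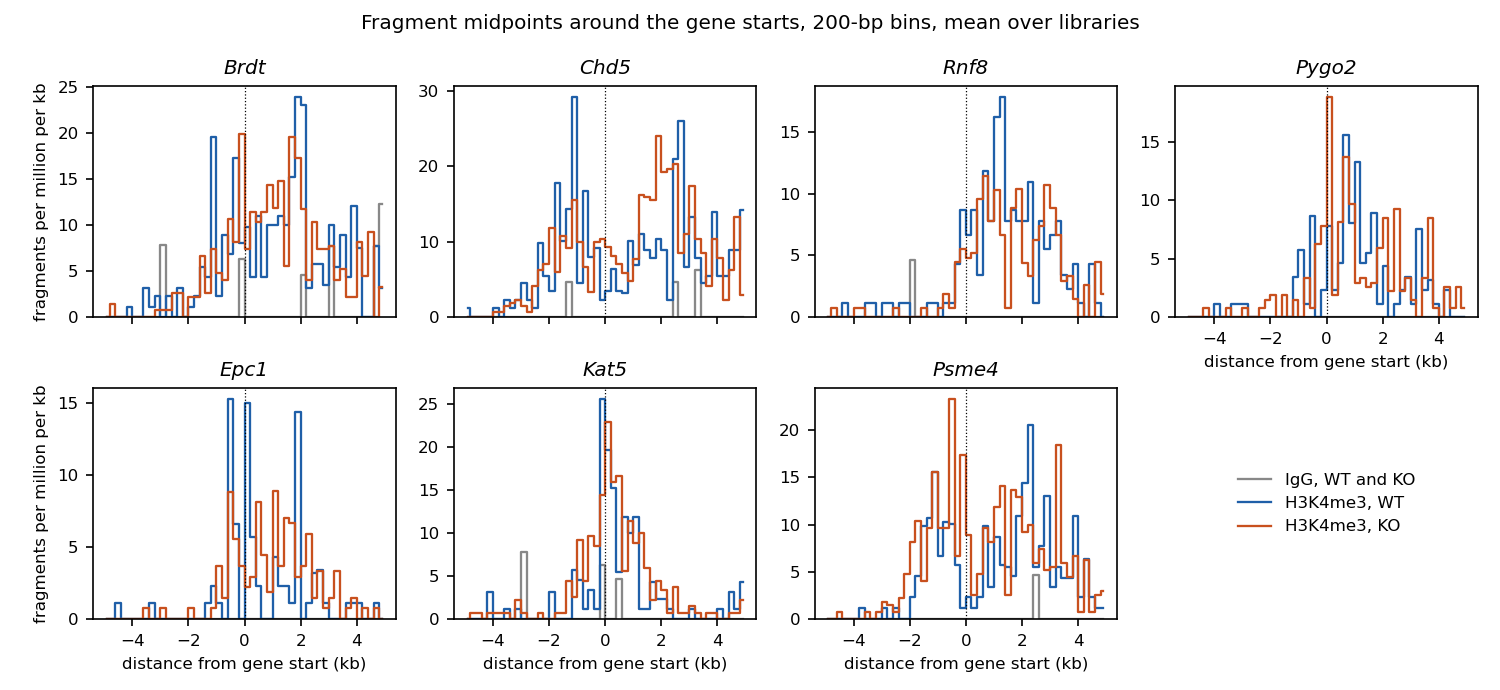
H3K4me3 CPM per kb (y axis, a scale per gene) in 200-bp bins by distance from the gene start in kb (x axis), as means of the 2 WT (blue) and 2 KO (orange) libraries, with the mean of the 4 IgG libraries in gray. H3K4me3 sits on the start at Kat5, mostly downstream at Rnf8 and Pygo2, and on both sides of the start at Chd5 and Psme4.

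The reach of H3K4me3 also differed. A run was defined as consecutive 1-kb windows from the start with at least 5 times the genome mean in pooled libraries, and 11218 genes (51.1%) had one, with a median width of 4 kb. Chd5 had the widest run of the 7, 11 kb from 3 kb before to 8 kb after the start, which is wider than 90.2% of those genes. Its 711 fragments were 64 and 206 in WT and 118 and 323 in KO, so no single library made the run. Brdt and Psme4 had runs of 8 kb (wider than 79.8%), Rnf8 and Pygo2 of 5 kb, Epc1 of 4 kb and Kat5 of 3 kb. Runs computed from the WT and the KO libraries apart were within 2 kb of each other for every gene, at 13 and 11 kb for Chd5. At 3 and 10 times the genome mean, limits chosen after seeing the data, the Chd5 run was 15 and 11 kb wide and that of Kat5 5 and 3 kb.

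Brdt, Epc1 and Psme4 each had another H3K4me3 run inside the gene. The one in Psme4 was a single window 13 to 14 kb after the start, with 0 and 6 fragments in WT and 3 and 6 in KO, at 5.30 times the genome mean just over the limit. In Brdt it lay 27 to 29 kb after the start (chr5:107358159-107360158) with 15 and 30 fragments in WT and 30 and 35 in KO, 19.4 times the genome mean, and IgG had 2 fragments there. It covers 5 annotated Brdt exons and the start of a noncoding Brdt transcript, at 28678 bp. In Epc1, on the - strand of chromosome 18 with its start at 6516108, the run lay 23 to 29 kb after the start and held 255 fragments, 23 and 72 in WT and 40 and 120 in KO, against 142 in the run at the gene start. At 25252 bp it contains the start of 2 coding transcripts, the longest Epc1 coding sequence among them. Within 1 kb of that internal start lay 8 and 27 H3K4me3 fragments in WT and 15 and 49 in KO, 99 in all, compared with 75 at the gene start. Gm28529 and Mir1893 also start in this run or within 1 kb of it, and fragments from these starts cannot be separated.
Runs near the ends of Pygo2 and Kat5 lay at or within 1 kb of the starts of other genes. For the one beyond Pygo2 (159 fragments) this gene is Pbxip1, and for the one at the end of Kat5 (120 fragments) it is Rnaseh2c. The run at the end of Kat5 also contains the start of a coding Kat5 transcript at 6271 bp. The annotated starts of noncoding or shorter transcripts deeper in the other genes had few fragments within 1 kb. The 5 in Psme4 from 39811 to 93743 bp had 0 to 5, the 4 in Rnf8 from 13846 to 19696 bp had 1 to 3, and the one in Chd5 at 33491 bp had 1.

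H3K27me3 passed the same limit at 2 places. In Chd5, 26 fragments fell in 1 window 22 to 23 kb after the start, 9.31 times the genome mean, and 24 of them were from replicate 1 (13 in WT and 11 in KO). Before Pygo2, 20 fragments fell 1 to 2 kb upstream, in the neighboring gene Shc1, and all were from replicate 1 (6 in WT and 14 in KO). The replicate 2 libraries of this mark hold 200457 (WT) and 711758 (KO) fragments, against 2891646 and 3806026 in replicate 1. No window along the 7 genes reached the limit for H3K9me3.

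**Figure D3:**
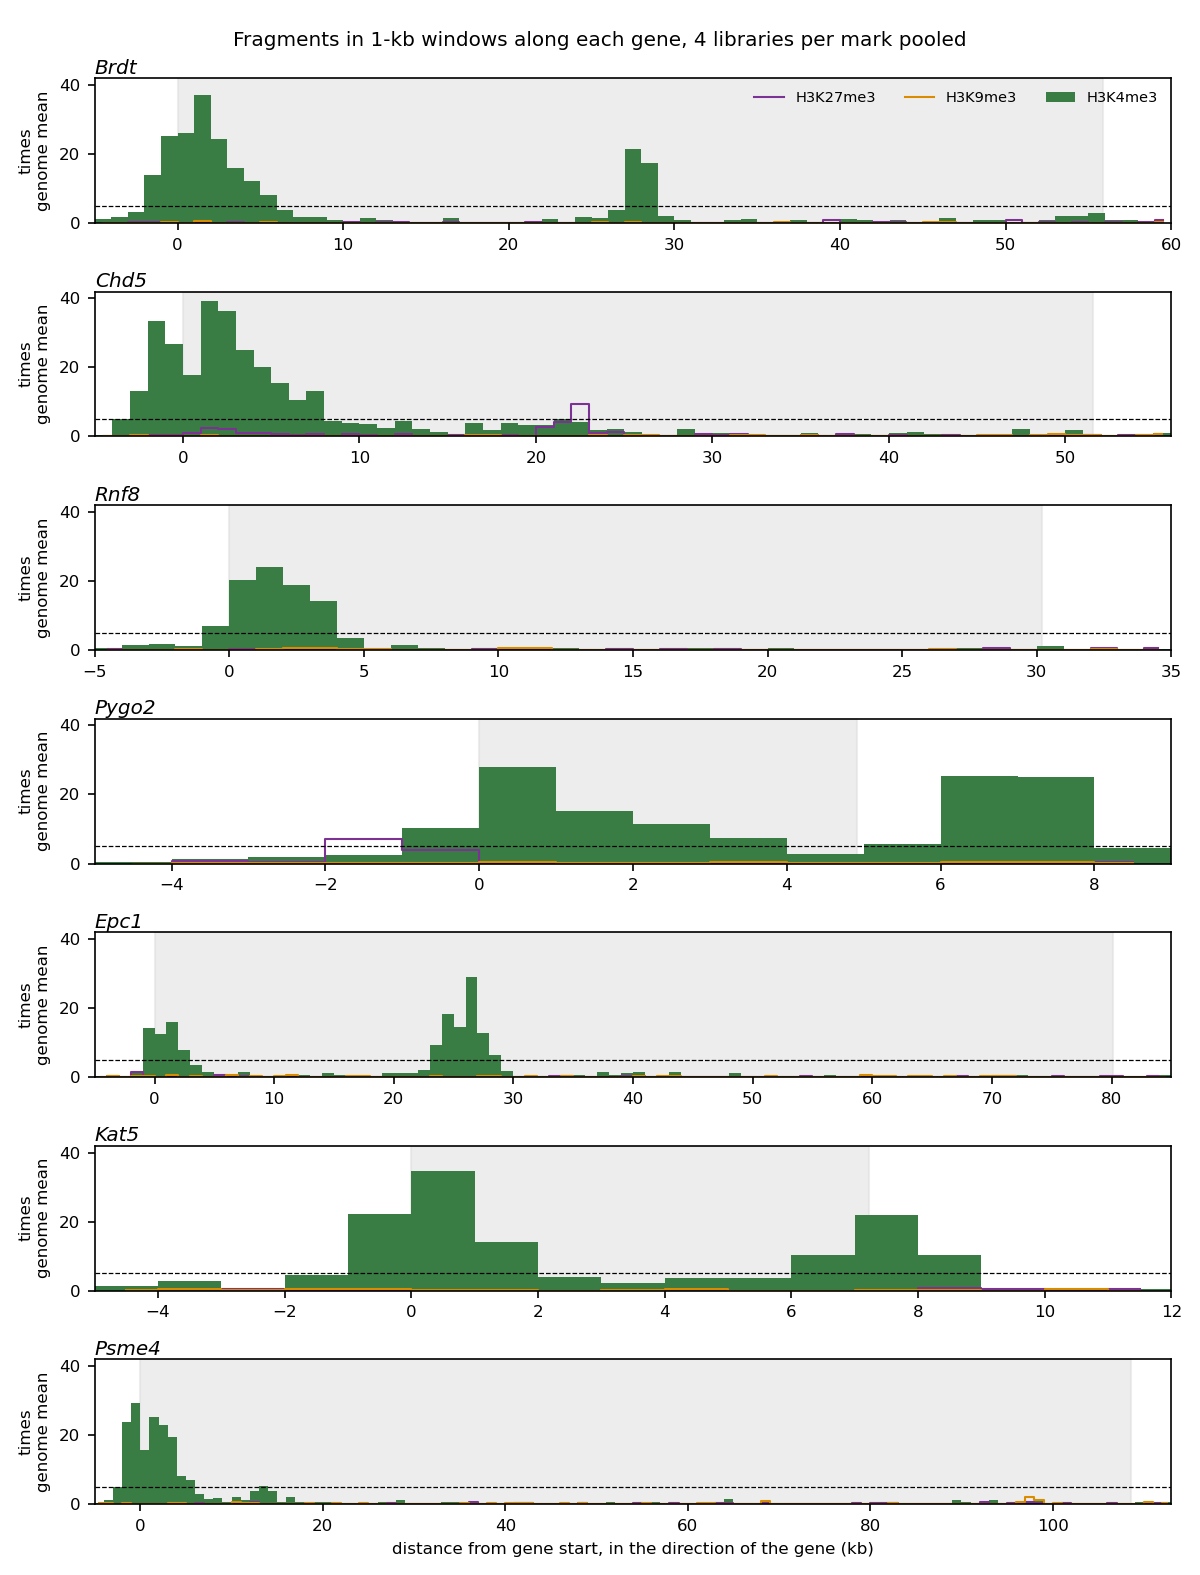
Fragments in 1-kb windows from 5 kb before the start to 5 kb beyond the end of each gene, as multiples of the genome mean of the mark (y axis), with the 4 libraries of a mark pooled; gray marks the gene and the dashed line 5 times the mean. Green bars (H3K4me3) show the wide run at Chd5, the internal runs of Brdt and Epc1, the window of Psme4 that just passes 5, and the runs at the starts of the next genes beyond Pygo2 and Kat5, and the H3K27me3 line passes 5 in Chd5 and before Pygo2.

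Over the gene bodies, taken from 1 kb after the start to the gene end, H3K4me3 was again higher than IgG for 7 of 7 genes (limma-voom, adjusted p from 0.00186 to 0.00907), compared with 32.4% of the 17310 bodies tested. These counts include the downstream part of the run at the start. They also hold the internal runs of Epc1 (255 of 426 body fragments) and Brdt (110 of 505) and part of the run at the end of Kat5. A call therefore does not show H3K4me3 along the whole body. Pygo2, Kat5 and Rnf8, with 0, 1 and 2 IgG fragments, entered the test through H3K4me3 alone. Log2 differences were 1.53 (Psme4) to 2.54 (Rnf8), and as at the starts those of genes with few IgG fragments depend on how low counts are treated. In pooled counts the ratio was 10.2 at Rnf8 (95% exact interval 2.79 to 84.9) and 12.3 at Kat5 (2.17 to 490). Per kb of body, Pygo2 had the highest H3K4me3 in WT (3.18 ± 0.808 CPM per kb, SD, n = 2) and Psme4 the lowest (0.472 ± 0.0311). In KO the values were 3.27 ± 0.597 and 0.464 ± 0.00239. The body is 3914 bp long in Pygo2 and 107635 bp in Psme4. The run at the start reaches 4000 bp in Pygo2 and 6000 bp in Psme4, so it fills far more of the short body. These levels per kb therefore depend on body length and do not rank the genes by H3K4me3 along the gene. With WT libraries alone 0 of 7 bodies and 0 of all 14666 tested were called, and with every deposited fragment counted 4 of 7 and 5236 of 19284 were called.
H3K27me3 was lower than IgG over the bodies of Brdt (14 against 17 fragments, log2 difference -3.16), Epc1 (14 against 13, -2.85) and Psme4 (29 against 12, -1.98), 3 of 4 tested (limma-voom, adjusted p = 0.00932, 0.0173 and 0.0257). Of the 14267 bodies tested, 24.1% were called lower and 23.3% higher. Chd5 was not called, with 95 H3K27me3 and 21 IgG fragments (log2 difference -1.04, adjusted p = 0.111). The comparison is of shares of a library, since the H3K27me3 libraries hold 7609887 fragments and the IgG libraries 791157 in all. In the pooled libraries Brdt had 1.84 CPM of H3K27me3 and 21.5 CPM of IgG.
H3K9me3 was lower than IgG over the bodies of Brdt (log2 difference -3.71), Chd5 (-2.93), Epc1 (-2.41) and Psme4 (-1.85), 4 of 5 tested (limma-voom, adjusted p from 0.00498 to 0.0295), and 62.9% of 16721 bodies were called lower. The H3K27me3 and H3K9me3 calls did not hold under several alternatives. Leaving out H3K27me3 WT replicate 1, H3K27me3 KO replicate 1 or IgG KO replicate 1 left 0 H3K27me3 calls, and leaving out H3K9me3 WT replicate 1 or any 1 IgG library left 2 H3K9me3 calls.

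No start of the 7 genes was called different in H3K4me3 between KO and WT by limma-voom (0 of 7, and 0% of 12780 starts tested). Before adjustment 402 starts had p under 0.05, and limma-trend called 0. The fitted KO minus WT log2 difference was above 0 for all 7, with an interval that crossed 0 in each, and the median over all starts was itself 0.17. Scaling by the median of ratios took that median to -0.0084 and turned the sign for Chd5, Rnf8, Pygo2 and Epc1. Unlike the fit, the mean CPM was lower in KO at Rnf8 (10.7 in WT and 10.4 in KO) and Epc1 (9.23 and 8.56). It was higher in KO at the other members.
A pair here is the WT and the KO library of the same replicate number. Psme4 had the largest difference, 0.73 (95% interval -0.13 to 1.58, adjusted p = 0.999, limma-voom), which came from pair 1 (2.07, from 4 fragments in WT), while pair 2 differed by 0.03. Brdt differed by 0.25 (-0.46 to 0.96), with 0.51 in pair 1 and 0.07 in pair 2. For Kat5 the difference was 0.23 (-0.47 to 0.94), and the pairs went opposite ways (0.57 and -0.13). The others had 0.18 (Pygo2, -0.64 to 0.99), 0.06 (Epc1, -0.86 to 0.98), 0.05 (Rnf8, -0.76 to 0.85) and 0.04 (Chd5, -0.75 to 0.84), with pairs of opposite sign in each. Each interval holds for its own gene and includes 0, and intervals this wide do not show that KO and WT are equal.

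Over the gene bodies, 0 of 7 genes were called different in H3K4me3 by limma-voom (0% of 17015 bodies, 26 at an unadjusted p under 0.05, 0 by limma-trend). The intervals were narrower for the genes with more fragments, at -0.37 to 0.73 for Chd5 (difference 0.18, and 0.17 and 0.18 in the pairs) and -0.70 to 0.46 for Brdt (-0.12, with -0.15 and -0.11). Kat5 had the largest value, 0.52 (-0.47 to 1.52), with 1.19 in pair 1 and 0.20 in pair 2. For H3K27me3, 0 of 4 tested bodies were called different (0% of 12792, 7 unadjusted), and for H3K9me3 0 of 5 (0% of 16194, 101 unadjusted). For IgG it was 0 of 4 (0% of 5030, 68 unadjusted). These counts are by limma-voom, and limma-trend called 0 as well. The spread behind these 3 targets is wide, with standard errors of 0.68 to 1.25 on the log2 scale for H3K27me3 and H3K9me3.

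**Figure D4:**
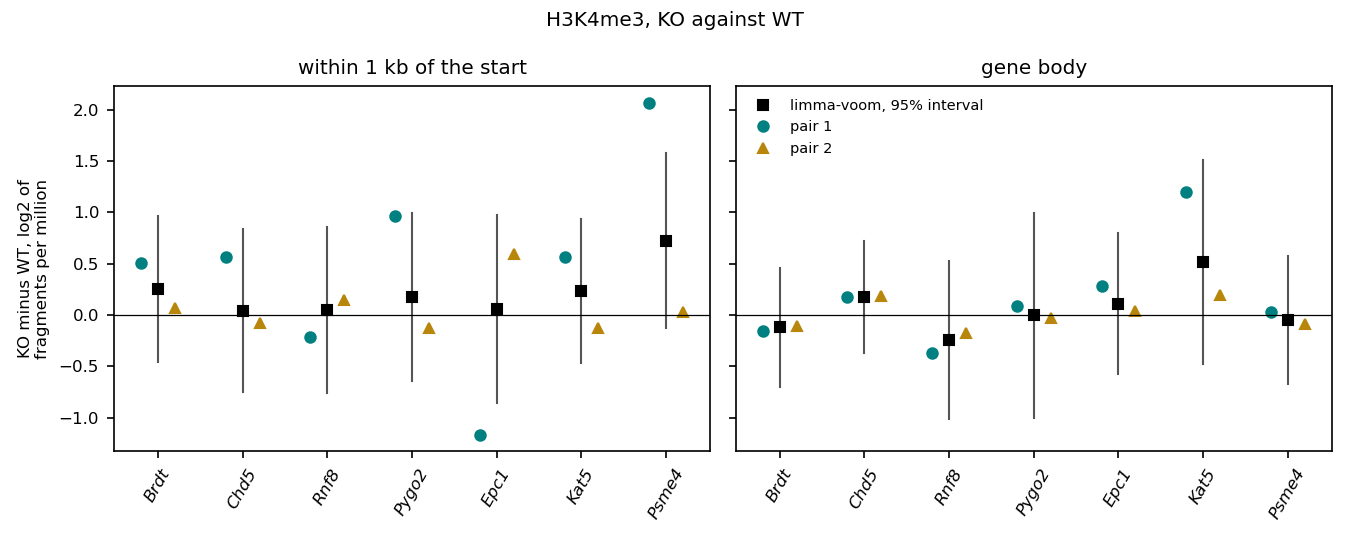
KO minus WT difference of H3K4me3 (y axis, log2 of CPM) for the 7 genes, within 1 kb of the start (left) and over the gene body (right). Squares are limma-voom estimates with 95% intervals, which all cross 0; circles and triangles are pairs 1 and 2, and Psme4 at the start differs by 2.07 in pair 1 and 0.03 in pair 2.

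Fragments of up to 120 bp, shorter than the DNA wrapped on a nucleosome, were compared with those of 150 bp or more at the same starts. In the 7 genes together, WT replicates 1 and 2 had 17 small and 40 large and 56 small and 155 large H3K4me3 fragments, and KO replicates 1 and 2 had 59 and 93 and 152 and 201. Of all fragments at these starts, those of intermediate length included (60, 232, 156 and 371 in the same order), small ones made up 28.3% and 24.1% in WT and 37.8% and 41.0% in KO, and the genotypes did not overlap. At the starts of all genes the shares were 27.8% and 22.7% in WT and 37.9% and 35.5% in KO, and over the whole H3K4me3 libraries 22.4% and 22.7% in WT and 33.3% and 35.9% in KO. The share was also higher in the KO library of each pair for the other targets, at 48.8% and 44.3% in WT and 57.1% and 52.1% in KO for IgG, and its part in the values of the 7 genes was not tested. The log2 ratio of small to large, with 0.5 added to each count, was higher in KO by 0.56 in pair 1 and 1.06 in pair 2 in the 7 genes, and by 0.68 and 0.94 at all starts.
Single genes varied widely at this depth. Kat5 had 2 small and 13 large fragments in WT replicate 1, 12 and 27 in WT replicate 2, 20 and 18 in KO replicate 1 and 20 and 40 in KO replicate 2. In both pairs the KO library had the higher ratio (log2 differences of 2.58 and 0.16). Brdt (0.04 and 0.97), Rnf8 (0.65 and 0.94) and Epc1 (0.29 and 0.78) were also higher in both pairs, as were all starts summed (0.68 and 0.94). The share of single starts over all genes that were higher in both pairs is not given here. The median fitted difference over the 9864 starts tested, before the centering described below, was 0.79, so a higher ratio does not set members apart. Chd5 (-1.95 and 2.22), Pygo2 (-1.10 and 0.93) and Psme4 (-1.22 and 1.25) had pairs of opposite sign. In all 7 genes, WT replicate 1 had 2 or 3 small fragments. Exact two-sided permutation tests gave p = 0.333 for Rnf8, Epc1 and Kat5, the smallest value that 2 libraries against 2 can give, 0.667 for Brdt and Chd5 and 1 for Pygo2 and Psme4.
After each library was centered on its median over all genes, no member was called different from the rest of the genome (limma, 0 of 7 at the starts, where 0.0101% of 9864 were called and 425 had an unadjusted p under 0.05). The log2 differences ran from -0.34 for Pygo2 (95% interval -1.54 to 0.86) to 0.65 for Chd5 (-0.64 to 1.94), and intervals this wide do not show that the members match the genome. Over gene bodies, 0 of 7 were called for H3K4me3 (0.0150% of 13377, 574 unadjusted), 0 of 5 for H3K9me3 (0.103% of 9664, 97 unadjusted) and 0 of 2 for H3K27me3 (0% of 7482, 223 unadjusted). Without the centering, 2 of 7 bodies had a higher ratio of small to large H3K4me3 fragments in KO, as did 21.0% of all bodies. These were Brdt (0.78, standard error 0.29, adjusted p = 0.0413, limma) and Epc1 (1.11, standard error 0.33, adjusted p = 0.00869), while Pygo2 had -0.19. At the starts, 0 of 7 were called without it (adjusted p from 0.222 to 0.617, limma), against 0.274% of 9864. No member body was called without it for H3K9me3 or H3K27me3.

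**Figure D5:**
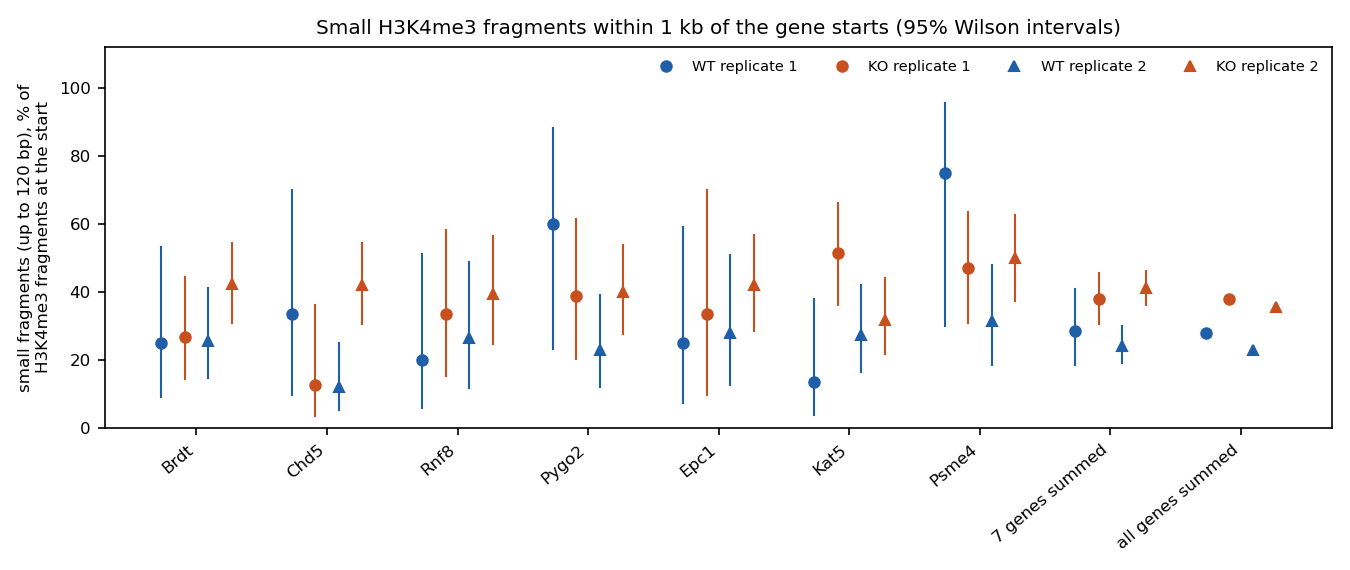
Share of H3K4me3 fragments within 1 kb of the start of up to 120 bp (y axis, %), by library, for each gene, the 7 genes summed and all protein-coding genes summed; bars are 95% Wilson intervals, which cover counting error only. The intervals of single genes are wide, and in the sum of the 7 genes both KO shares (37.8% and 41.0%) are above both WT shares (28.3% and 24.1%).

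Of 44 other genes of these pathways, 42 had enough fragments to be tested at the start, and 36 had more H3K4me3 than IgG, 0 less (limma-voom, with the background of 73.6% given above). As few starts have IgG fragments, entry to this test also rested largely on H3K4me3. By role these were 4 of 4 acetyl-lysine readers, 11 of 14 further NuA4 subunits, 4 of 5 other acetyltransferases and partners, 7 of 7 ubiquitin ligases and readers, 2 of 2 CHD remodelers, 5 of 5 other factors of spermatid chromatin, 2 of 4 proteasome genes and 1 of 1 tested Pygo partner. The median H3K4me3 level was 16.5 CPM over the 44 genes and 14.3 over the 7. KO against WT called 0 of 42 (limma-voom), with a median log2 difference of 0.19.
Some relatives of Psme4 and Pygo2 in this list, and the NuA4 subunit Ruvbl2, had more H3K27me3 and less H3K4me3 at their starts, and these are named here after their values were seen. Psme1 and Psme2, subunits of another proteasome activator, had 176 and 383 H3K27me3 fragments within 1 kb of their starts over the 4 libraries, against 0 at Psme4. Their H3K4me3 counts were 12 and 20, against 127 at Psme4. The other proteasome genes of the list did not share this, with 181 H3K4me3 and 2 H3K27me3 fragments at Psme3 and 153 and 0 at Psma8. The paralog Pygo1 and the PYGO-binding Bcl9 had 3 H3K4me3 fragments each and 87 and 337 H3K27me3 fragments, against 108 and 11 at Pygo2, and Bcl9l had 32 and 107. Ruvbl2 had 14 and 51, against 161 and 0 at Kat5 and 75 and 0 at Epc1. In total H3K27me3 was called higher than IgG at 6 of the 10 pathway genes tested and lower at 2 (limma-voom), and 65.2% of all starts tested were called higher. The other 34 genes had too few fragments of H3K27me3 and IgG to be tested, so these counts describe only the genes that entered.

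For each gene, the other protein-coding genes with the most similar values at the start over the 16 libraries were found by the Euclidean distance of log2(CPM + 1). Rnf8 was nearest to the overlapping Gm28043 (distance 0.23) and to 4921539E11Rik (0.26), Kat5 to Chkb (0.50) and Inpp5a (0.56), Psme4 to Pik3c2a (0.45) and Taf5l (0.48), and Brdt to Fbxw9 (0.56) and Nck1 (0.57). The nearest genes to Chd5 were Arid3a and Slc36a3 (0.58 each), those to Epc1 Sumo2 (0.54) and Cdc7 (0.55), and the nearest to Pygo2 was Rad9a (0.86). The median distance to all genes was 5.88 to 7.96. A single IgG fragment, such as the 1 at Brdt or the 2 at Kat5, is 3.70 to 5.03 CPM and weighs heavily in these distances.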

How the data were processed

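Spermatids from 2 pairs of WT and KO brothers were profiled with 4 antibodies, and 2 replicates per group gave 16 libraries. The authors aligned reads to mm10 with Bowtie2 (version 2.3.4.3 in the submitters' processing notes) and deposited each fragment's position and length, with no scaling. Lengths run from 23 to 700 bp. Repeats of the same coordinates made up 33.6% to 83.4% of a library, although removal of PCR duplicates is described, and each distinct fragment was counted once here.

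The 7 genes and all gene lists were chosen with earlier results of these data known. Fragments were placed by their midpoint within 1 kb of the GENCODE vM21 gene start, or in the body from 1 kb after the start to the end. Genes with at least 10 fragments over the libraries of a fit were tested with limma-voom (limma 3.58.1, R 4.3.3), scaled to the library total, with Benjamini-Hochberg adjustment over all genes and a threshold of 0.05. The ratio of small (up to 120 bp) to large (150 bp or more) fragments, with 0.5 added, was tested with limma in genes with at least 10 of each, after centering each library on its median. Single values were compared by exact two-sided permutation tests. Scripts were tested on simulated data and used Python 3.11.15, NumPy 2.4.6, SciPy 1.17.1 and pandas 2.3.3. Genes were named because they are members, among the 2 nearest to a member (1 such gene is not reported here), or chosen after their values were seen, as stated.

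Same-numbered WT and KO libraries share a leading code in their titles, and the labels do not tie the numbers to sibling pairs. Deviations from the group means in 10-kb bins correlated at 0.378 for H3K4me3, 0.0434 for H3K27me3, 0.429 for H3K9me3 and 0.0915 for IgG, and a fit with the replicate number as a block was an alternative. With 2 animals per group the p-values measure only the spread between these libraries. Alternatives were other windows, counting rules, filters, scalings and length limits, limma-trend, 1 genotype alone and leaving out each library.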

Additional observations from a re-analysis of the deposited data

How the results depend on the processing

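Counts of members called were recomputed in 264 alternatives and stayed within 1.5 times the reported count in 239. Many of these belong to KO against WT results with 0 members called, where a count has little room to move. The total therefore says little about the results that had calls. H3K4me3 bodies above IgG fell from 7 to 4 with every deposited fragment and to 0 with WT libraries only, where 0 of 14666 bodies were called (5 to 7 when single libraries were left out). For H3K27me3 bodies the 3 calls became 5 with no filter, 0 with at least 50 fragments, limma-trend or WT only and 1 with KO only, and 0 to 3 without single libraries (0 without H3K27me3 WT replicate 1, H3K27me3 KO replicate 1 or IgG KO replicate 1). For H3K9me3 bodies the 4 became 2 with limma-trend, 0 with WT only and 1 with KO only, and 2 to 5 without single libraries (2 without H3K9me3 WT replicate 1 or any IgG library). At the starts, H3K27me3 had 1 call with every deposited fragment or within 2 kb and 5 with no filter (17156 of all 21938 starts), and H3K9me3 2 within 2 kb (5052 of 9123) and 7 with no filter (20857 of 21938). The limit of 50 fragments left out the 3 H3K27me3 bodies called, which had 31 (Brdt), 27 (Epc1) and 41 (Psme4), so its 0 does not test them. Except where given, the share of all genes called in an alternative is not stated here. Such counts cannot tell a change in the members from a change over all genes. Uncentered, the ratio over bodies had 2 calls in place of 0. The mean log2 ratio at starts was higher in KO for 6 of 7 genes, Psme4 by only 0.012, and for 3 to 7 without single libraries (3 without H3K4me3 KO replicate 2). Without centering, the median fitted difference over the 9864 starts tested was 0.79, so a higher ratio in KO was not particular to the members. The replicate block changed no count of members called (7, 3 and 4 over bodies), and it cannot change the mean differences behind the 6. The cause of these shifts was not tested, apart from the fewer libraries or genes that an alternative leaves.

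Of 597 alternatives for single members, 491 kept direction and call, 64 lost the call, 2 gained it, 10 moved and 30 changed sign, nearly all of these in uncalled KO against WT differences. At starts these were Chd5 (-0.20 by any overlap, -0.16 by median-of-ratios), Rnf8 (-0.11 within 500 bp, -0.29 within 2 kb, -0.019 by limma-trend, -0.10 by median-of-ratios), Pygo2 (-0.083 within 2 kb, -0.0094 by median-of-ratios) and Epc1 (-0.59 with every fragment, -0.23 within 500 bp, -0.26 by limma-trend, -0.12 by median-of-ratios). Over bodies they were Pygo2 (0.14 with every fragment and over the whole gene, 0.049 by limma-trend), Psme4 (0.029 over the whole gene) and, for H3K9me3 against IgG, Rnf8 (0.33 by limma-trend). Without single libraries the KO minus WT log2 differences that changed sign ranged over Chd5 -0.31 to 0.90, Rnf8 -0.37 to 0.21, Pygo2 -0.17 to 1.04, Epc1 -0.92 to 0.50 and Kat5 -0.11 to 0.54 at starts, and Pygo2 -0.22 to 0.31, Epc1 -0.15 to 0.53 and Psme4 -0.090 to 0.032 over bodies. The depth of the IgG libraries limits every comparison with IgG, and 4 to 15 fragments in H3K4me3 WT replicate 1 limit the starts.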
